A study of Mus musculus with 4 samples.

Results

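The miR-10, miR-99/100 and miR-125 families were followed in activated mouse T cells that carried either a Foxp3 vector or a control vector. Foxp3 is the lineage factor of regulatory T cells, and the RNAs of both kinds of cells were set against each other on 2-colour microRNA arrays. Members were chosen by their probe names, as 2org-10a, 1org-10b, 1org-99a, 1org-99b, 2org-100, 1org-125a and 1org-125b, which are 7 of the 171 miRNA probes of the deposited table. There were 4 arrays: at 96 h, 1 array with the Foxp3 RNA in Cy5 and the control RNA in Cy3 (the Foxp3-Cy5 array) and 1 with the dyes exchanged (the Foxp3-Cy3 array), and the same 2 arrangements at 72 h. Both RNAs on an array came from activated T cells of the same time point, so activation and transduction were shared by both sides. The labels used here give no strain, vector or source of the T cells, and do not say whether the time points were separate cultures. The platform annotation lists 4 of the 7 probes, 2org-10a as Mir10a, 1org-10b as Mir10b, 1org-99a as Mir99a and 1org-99b as Mir99b. It does not list 2org-100, 1org-125a and 1org-125b, which keep their probe names here.

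MicroRNAs are short RNAs that lead Argonaute proteins to messenger RNAs, chiefly through pairing of the seed near their 5′ end, and lower the output of those messengers. The miR-10 genes lie within the Hox gene clusters, and miR-10a is known from regulatory T cells of the mouse, where retinoic acid raises it. The miR-99/100 family is known for targeting Mtor, and the miR-125 family for roles in blood stem cells and in lymphocyte differentiation. Genes of the miR-99/100 and miR-125 families lie in clusters with a let-7 gene between them.

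The mature sequences are shown because the arrays had to separate miRNAs that differ by very few bases. They are from the RefSeq miRNA table of build GRCm38.p6, 5′ to 3′, with the seed (bases 2 to 8) in capitals. Mir10a, Mir10b, Mir99a and Mir99b were matched through the gene ID of the annotation, and the last 3 sequences by the number in the probe name only. The annotation names no arm, so the 5p arm is printed, and the sequences of the probes themselves were not used here.
miR-10a-5p: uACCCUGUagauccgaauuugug
miR-10b-5p: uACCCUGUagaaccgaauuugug
miR-99a-5p: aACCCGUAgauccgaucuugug
miR-99b-5p: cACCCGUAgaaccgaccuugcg
miR-100-5p: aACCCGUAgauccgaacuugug
miR-125a-5p: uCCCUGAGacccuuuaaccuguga
miR-125b-5p: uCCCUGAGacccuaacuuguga

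The 7 sequences held 3 seeds, 1 per family. With positions counted from 1 at the 5′ end, miR-10a and miR-10b differed by the single substitution U12A, and miR-99a and miR-100 by the single substitution U16A. miR-99a and miR-99b shared 18 of 22 bases and differed by A1C, U11A, U16C and U21C. miR-125a and miR-125b shared their first 13 bases and their last 5. Likeness also crossed the families: shifted by 1 base, miR-10a and miR-100 matched at 19 of 22 positions, and they ended in the same 5 bases.

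All listed loci of these miRNAs lay on the plus strand. Mature miR-10a lay at chr11:96317186-96317208, within the span of Hoxb3 and beside Hoxb4. Mature miR-10b lay at chr2:74726074-74726096, within the spans of Hoxd3 and Hoxd4. Mir99b and Mir125a lay within the span of Spaca6, with mature miR-99b at chr17:17830194-17830215 and mature miR-125a at chr17:17830817-17830840. With Mirlet7e between them, that cluster covered 686 bases. Mature miR-100 lay at chr9:41531437-41531458 within Mir100hg, a long non-coding RNA gene, as did Mir125b-1 at chr9:41581940-41581961. Mir99a, at chr16:77598940-77598961, and Mir125b-2, at chr16:77646279-77646300, overlapped no other gene of the RefSeq gene table. Each of these 2 wider clusters also held a let-7 gene, and they covered 50578 and 47404 bases. Whether the miRNAs lay in exons or introns was not analysed here.

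Each probe had 1 log ratio per array, taken as log2 and read as Cy5 over Cy3. The sign was turned on arrays with the Foxp3 RNA in Cy3, so that a positive turned ratio stands for a level likely higher with Foxp3. This direction was not settled by the labels. Between the dye-swapped arrays, r across the 171 miRNA probes (no independent replicates) was -0.12 for 96 h and 0.66 for 72 h, and a swap of the RNAs would turn the sign of a value that follows the RNA. The Foxp3-Cy5 array of 96 h stood apart, its miRNA median being 1.27, where the other 3 had 0.02, -0.59 and -0.83. It correlated at -0.20 to 0.07 with the 3 others, which correlated at 0.66 to 0.80 with each other. A ratio table holds no levels, so T cell identity could not be checked against marker levels, and a miRNA array does not measure the transduced Foxp3. Precision is limited by the number of arrays.

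Mir99b stood above the other 6 members on all 4 arrays. On the Foxp3-Cy5 array of 96 h the 7 deposited values ran from -0.11 to 4.47, with a median of 1.72. On the Foxp3-Cy3 array of 96 h they ran from -1.37 to 2.37, with a median of -0.65. At 72 h their medians were -0.92 with Foxp3 in Cy5 and -1.30 with Foxp3 in Cy3. Set against the median of the miRNA probes of the same array, 2 of 7 members lay below it on the Foxp3-Cy5 array of 96 h, and 6 of 7 on each of the other arrays.

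**Figure D1:**
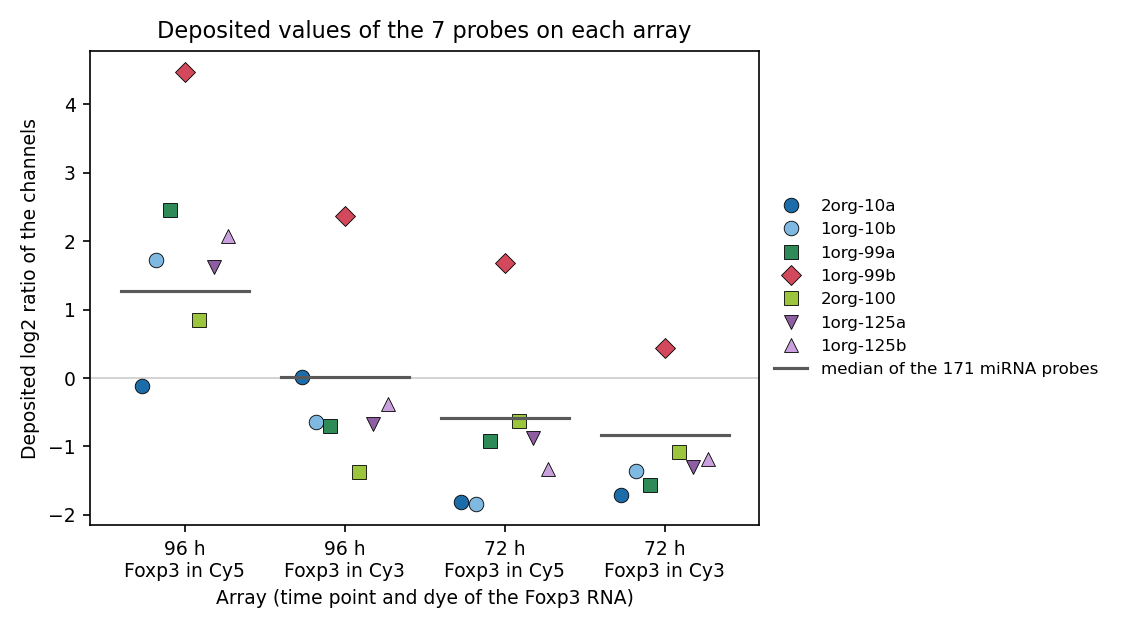
Deposited log2 ratios (vertical axis) of the 7 probes on the 4 arrays (horizontal axis, time point and dye of the Foxp3 RNA), with the median of the 171 miRNA probes of each array as a bar. The probe 1org-99b (Mir99b) is the highest member on every array, and the other members lie mostly below the bar except on the Foxp3-Cy5 array of 96 h, whose bar stands at 1.27.

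Mir10a had deposited 96 h values of -0.11 with Foxp3 in Cy5 and 0.02 with Foxp3 in Cy3, and 72 h values of -1.81 and -1.71. The deposited values of the 2 arrays of each time point thus differed little although their RNAs were exchanged. The 72 h values lay near the bottom of the table, at rank 165 of 171 from the highest on both arrays. The 96 h arrays had unlike medians, and there Mir10a was at rank 161 with Foxp3 in Cy5 and at rank 87 with Foxp3 in Cy3. Set against the miRNA median of the array, these 96 h values were -1.38 and -0.002. The turned ratios averaged -0.06 at 96 h and -0.05 at 72 h, a mean of -0.06 ± 0.01 (SD, n = 2 time points).

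Mir10b, the Hoxd-linked member of the same seed family, read 1.72 with Foxp3 in Cy5 and -0.65 with Foxp3 in Cy3 for 96 h, and -1.84 with Foxp3 in Cy5 and -1.36 with Foxp3 in Cy3 for 72 h. Its 96 h values had opposite signs, whereas its 72 h values were both low, at rank 168 of 171 with Foxp3 in Cy5. The turned ratios averaged 1.18 at 96 h and -0.24 at 72 h, a mean of 0.47 ± 1.01 (SD, n = 2). At 72 h Mir10a and Mir10b differed by 0.03 and -0.35 on the 2 arrays (Mir10a minus Mir10b). At 96 h they differed by -1.83 on the Foxp3-Cy5 array and by 0.66 on the other, so the 2 probes parted at 96 h with opposite signs on the 2 arrays.

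Mir99a had 2.45 with Foxp3 in Cy5 and -0.71 with Foxp3 in Cy3 at 96 h, and -0.92 and -1.57 at 72 h. Its turned ratios averaged 1.58 at 96 h, or 2.99-fold and the largest of the 7, and 0.32 at 72 h, a mean of 0.95 ± 0.89 (SD, n = 2). The probe 2org-100 had 0.85 (Cy5) and -1.37 (Cy3) at 96 h and -0.63 (Cy5) and -1.08 (Cy3) at 72 h, naming the dye of the Foxp3 RNA. Its turned averages were 1.11 at 96 h and 0.23 at 72 h, with a mean of 0.67 ± 0.62 (SD, n = 2). On the Foxp3-Cy3 array of 96 h it was the lowest but 1 of the table, at rank 170 of 171. Both probes followed the same course, with opposite deposited signs at 96 h and negative values throughout at 72 h.

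Mir99b, which shares its seed with Mir99a, had 4.47 (Cy5) and 2.37 (Cy3) at 96 h and 1.69 (Cy5) and 0.43 (Cy3) at 72 h. All 4 deposited values were positive, which held for 12 of the 171 miRNA probes (7.02%; as deposited, no probe was negative on all 4), and for no other member. It stood at rank 5 from the highest on both 96 h arrays, at 4 on the Foxp3-Cy5 array of 72 h and at 24 on the Foxp3-Cy3 array of 72 h. Because the sign did not turn with the dye swap, the turned ratios had opposite signs at each time point. They averaged 1.05 at 96 h and 0.63 at 72 h, a mean of 0.84 ± 0.30 (SD, n = 2). The mean of the 2 deposited values, the part of the ratio that does not turn with the RNAs, was larger than that average, at 3.42 at 96 h and 1.06 at 72 h.

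The probe 1org-125a had 1.62 with Foxp3 in Cy5 and -0.67 with Foxp3 in Cy3 at 96 h, and -0.88 and -1.30 at 72 h. Its turned averages were 1.14 at 96 h and 0.21 at 72 h, a mean of 0.67 ± 0.66 (SD, n = 2). The probe 1org-125b had 2.08 (Cy5) and -0.39 (Cy3) at 96 h and -1.34 (Cy5) and -1.18 (Cy3) at 72 h. Its turned averages were 1.23 at 96 h and -0.08 at 72 h, with a mean of 0.58 ± 0.93 (SD, n = 2). The 2 probes stayed within 0.46 of each other on every array.

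Turned, 6 of the 7 members had the same sign on both arrays of 96 h, as did 96 of the 171 miRNA probes (56.1%). At 72 h it was 0 of 7 members, against 48 of 171 probes (28.1%). Every member thus kept its deposited sign across the dye swap at 72 h. The median of the turned averages was 1.14 for the members and 0.81 for all miRNA probes at 96 h, and 0.21 and 0.07 at 72 h. The median of the part that does not turn was 0.54 for the members and 0.65 for all miRNA probes at 96 h, and -1.24 and -0.67 at 72 h.

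**Figure D2:**
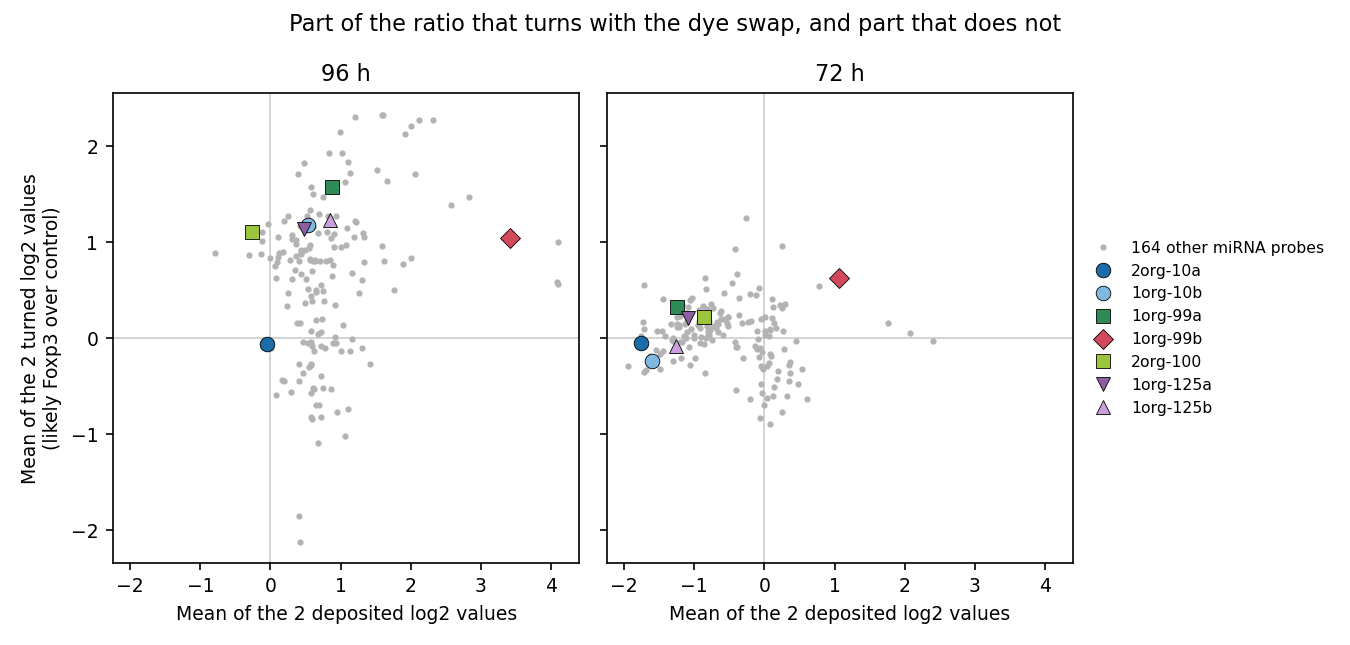
For each miRNA probe, the mean of the 2 turned log2 values (vertical axis, likely Foxp3 over control) is plotted against the mean of the 2 deposited log2 values (horizontal axis, the part that does not turn with the dye swap), at 96 h on the left and 72 h on the right. At 72 h the 7 members lie from -0.24 to 0.63 on the vertical axis, with 1org-99b (Mir99b) the highest. They are spread along the horizontal axis from -1.76 to 1.06. At 96 h 6 of them lie at 1.05 or higher on the vertical axis and 2org-10a (Mir10a) at -0.06.

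The first comparison asked whether the members differed with Foxp3 over both time points. None passed limma's test over all 171 miRNA probes with Benjamini-Hochberg adjustment (0 of 7, 0% of all probes called). Their adjusted p-values ran from 0.517 for Mir99a to 0.945 for Mir10a. Unadjusted, 1 member, Mir99a, had a limma p under 0.05 (0.0484), as did 9.36% of all probes. Its limma mean of 0.95 had a 95% confidence interval from 0.01 to 1.90, and that of Mir10b from -0.47 to 1.42, so the intervals were wide beside the means. The mean lay above 0 for 6 of 7 members and for 129 of 171 probes (75.4%). No member had 1 sign on all 4 turned arrays, which 13 of 171 probes (7.6%) had. The limma standard error of 0.479 came from a variance pooled over all probes, each with 1 residual degree of freedom. The p-values and intervals thus treat the probes of the same 2 time points as independent, which they are not. They measure the spread between these time points only, which may be technical. The calls rested on single arrays: with the Foxp3-Cy5 array of 72 h left out, limma called 5 of 7 members likely higher (adjusted p = 0.0246 for each), all but Mir10a and Mir99b, together with 94 of the 171 probes (55%).

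At 96 h, 5 of 7 members passed 1.5-fold with 1 sign on both arrays, all likely higher: Mir10b, Mir99a, 2org-100, 1org-125a and 1org-125b, at 2.15-fold to 2.99-fold. Of all miRNA probes 46.2% passed on that side, and 0 members passed on the likely lower side, where 5.26% of all probes did. Mir99b, at 2.07-fold, did not count because its turned arrays had opposite signs, and Mir10a was 1.05-fold lower. With 1 replicate to a time point, no test was made here. The count rested on the scaling: with the arrays centred on their own miRNA medians, which lowered the turned ratios by 0.62 at 96 h and by 0.12 at 72 h, Mir99a at 0.96 and 1org-125b at 0.61 passed (17.5% of all probes on that side), and Mir10a was at -0.69. Centred on the U6 and tRNA control probes, which raised the turned 96 h ratios by 0.33, the same 5 passed (63.2% of all probes on that side) and Mir10a was at 0.26. With the Foxp3-Cy5 array of 96 h left out, 4 members were past 1.5-fold on the likely higher side of the remaining array (Mir10b, Mir99a, 2org-100 and 1org-125a; 24% of all probes on that side), and Mir99b was past it on the likely lower side at -2.37 (32.7% of all probes on that side).

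Markers of other cell types were also above 0 at 96 h, as was the median of all miRNA probes, at 0.81. The 5 stromal and endothelial miRNA probes ran from 0.83 to 1.93 with a median of 1.17. The 5 epithelial probes ran from 0.56 to 1.73 with a median of 1.00. Past 1.5-fold on both arrays, likely higher, were 5 of 5 stromal and endothelial probes but 1 of 5 epithelial and 1 of 8 lymphocyte probes. Of all miRNA probes 46.2% were. The erythroid probe 1org-144 was at 1.93 and the myeloid probe 2org-223 at 1.83. The 8 lymphocyte probes had a median of 0.03, and ran from -0.82 to 0.62. The U6 and tRNA probes had a median of -0.24. Their part in the values of the members was not tested. In RNA of whole cultures, fewer cells of a type and less of a miRNA per cell cannot be told apart.

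At 72 h, 0 of 7 members passed 1.5-fold on both arrays, against 2.34% of all miRNA probes likely higher and 5.26% likely lower. The largest average was that of Mir99b at 1.54-fold (log2 0.63), from turned values of 1.69 and -0.43. The next were Mir99a at 0.32 and 2org-100 at 0.23. None of the members passed with the arrays centred on U6 and tRNA or on the miRNA medians either, where 8.19% and 4.68% of all probes did. The values of a single array passed for most members and for most of the table. Without the Foxp3-Cy3 array 7 members passed, Mir99b likely higher (4.68% of all probes on that side) and the others likely lower (50.3%). Without the Foxp3-Cy5 array 6 passed, all likely higher (61.4% of all probes on that side).

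The other reading, in which the deposited values already stand for Foxp3 over control, set Mir99b further apart. At 96 h, Mir99b alone among the members passed 1.5-fold on both arrays, higher at log2 3.42, as did 33.9% of all miRNA probes. The others lay between -0.26 for 2org-100 and 0.87 for Mir99a, and Mir10a was at -0.05. At 72 h all 7 passed, Mir99b higher at 1.06 (2.92% of all probes were higher) and the other 6 lower, from -1.76 for Mir10a to -0.86 for 2org-100 (53.2% were lower). Over both time points limma called 0 members (1.75% of all probes called), and Mir99b had an adjusted p of 0.202 at a mean of 2.24 ± 1.67 (SD, n = 2). Centred on the miRNA medians as well, a combination added after the data had been seen, Mir99b was called at 2.27 ± 0.71 (SD, n = 2; limma adjusted p = 4.34e-07; 4.09% of all probes called). That call used a variance pooled over all probes, which treats the probes of the same 2 time points as independent. As already turned, the 5 epithelial probes had a 96 h median of 4.08, with 1org-141 at 1.13 and 1org-205 at 1.32 far below it. The 5 stromal and endothelial probes had a median of 0.56 and the 8 lymphocyte probes of 0.58. The part of these cell types in the value of Mir99b was not tested.

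**Figure D3:**
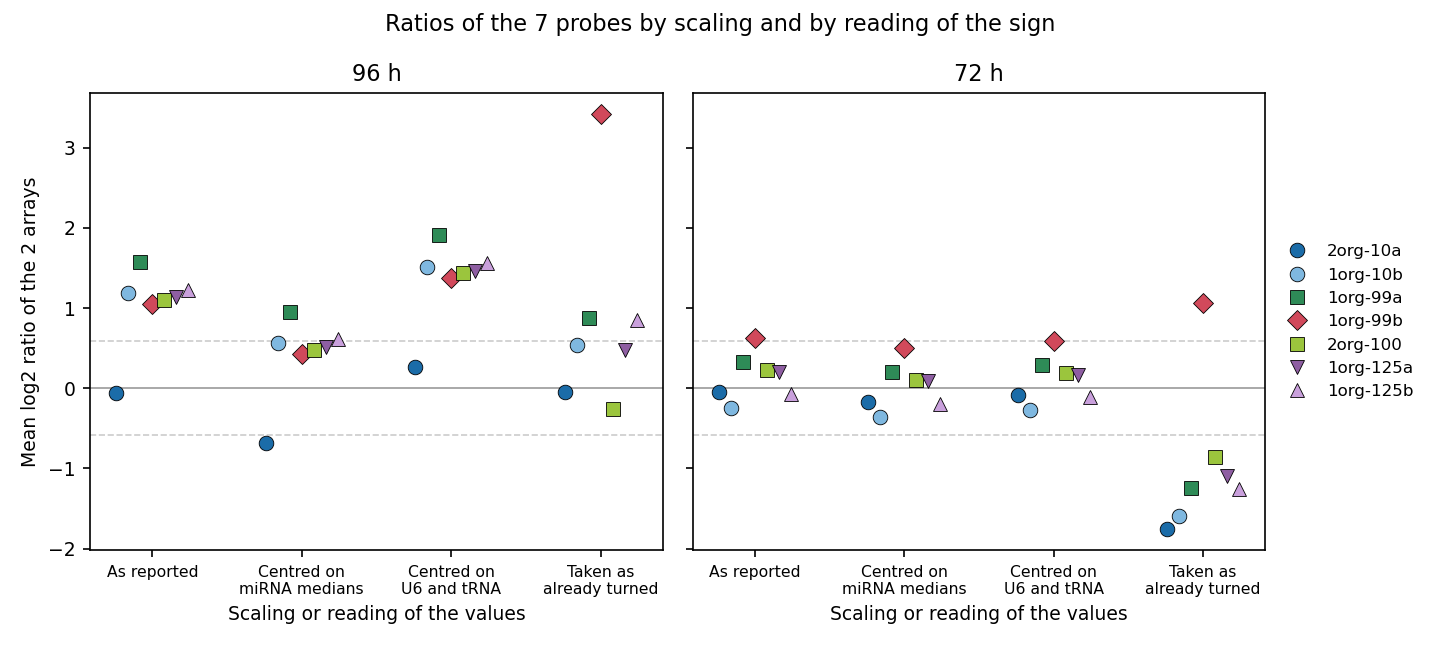
Mean log2 ratio of the 2 arrays of a time point (vertical axis) for the 7 probes under 3 scalings of the likely reading and in the reading with values taken as already turned (horizontal axis), at 96 h on the left and 72 h on the right; dashed lines mark 1.5-fold. In the likely reading 2org-10a (Mir10a) is the lowest member at 96 h under each scaling, and in the other reading the members except 1org-99b (Mir99b) lie at -0.86 or lower at 72 h.

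The ratios of the 2 time points were then compared. The 96 h minus 72 h differences of the turned averages were 1.42 for Mir10b, 1.31 for 1org-125b, 1.26 for Mir99a, 0.94 for 1org-125a, 0.88 for 2org-100, 0.42 for Mir99b and -0.02 for Mir10a. None passed limma's time term over the 4 arrays (adjusted p = 0.990 for each; 0% of all probes called, and 0 had an unadjusted p under 0.05). That fit held no dye term, so the part of the ratio that does not turn entered its residual spread. Its standard error was 1.42 for each member, about as large as the largest difference. The 95% confidence interval for Mir10b ran from -1.37 to 4.22. The 2 arrays of a time point carried the same RNAs with the dyes exchanged, so these p-values and this interval cover the spread between dye-swapped arrays only, with 1 replicate per time point and no measure of the spread between cultures. By the count without a test, 0 of 7 members differed by 1.5-fold without the arrays of one time point overlapping those of the other, against 7.02% of all probes. Centred on the miRNA medians 1 member did (1org-125b), and centred on U6 and tRNA 4 did (Mir10b, Mir99a, 1org-125a and 1org-125b), beside 24% and 47.4% of all probes. In the other reading it was 6 of 7 members, all higher at 96 h, beside 67.8% of all probes, and 2org-100 was the exception. With single arrays left out, in the likely reading, both the members' count and the share of all probes moved. The count was 2 members, 1 higher and 1 lower at 96 h (32.7% of all probes), without the Foxp3-Cy5 array of 96 h. It was 5, all higher (70.2%), without the Foxp3-Cy3 array of 96 h. It was 1, lower at 96 h (12.9%), without the Foxp3-Cy5 array of 72 h and 6, all higher (60.8%), without the Foxp3-Cy3 array of 72 h.

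The 21 pairs of members were set against the likeness of their sequences, by the root mean square difference of their deposited values over the 4 arrays. The closest pairs were Mir10b with 1org-125b at 0.34, which are of different families and differ at 7 of 21 aligned bases, and 1org-125a with 1org-125b at 0.36. miR-125a and miR-125b share their first 13 bases and their last 5, but have 24 and 22 bases. Their ungapped count of 7 differing bases leaves those last bases unaligned, so it does not measure their likeness. The pairs that differ by 1 base were farther apart, Mir10a with Mir10b at 0.99 and Mir99a with 2org-100 at 0.91. Over all 14535 pairs of miRNA probes the median was 1.07. The 6 pairs that held Mir99b lay at 2.46 to 3.29, and the 15 others at 0.34 to 1.41. Without Mir99b the median was 0.91 for the 3 pairs within a family and 0.72 for the 12 between families.

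**Figure D4:**
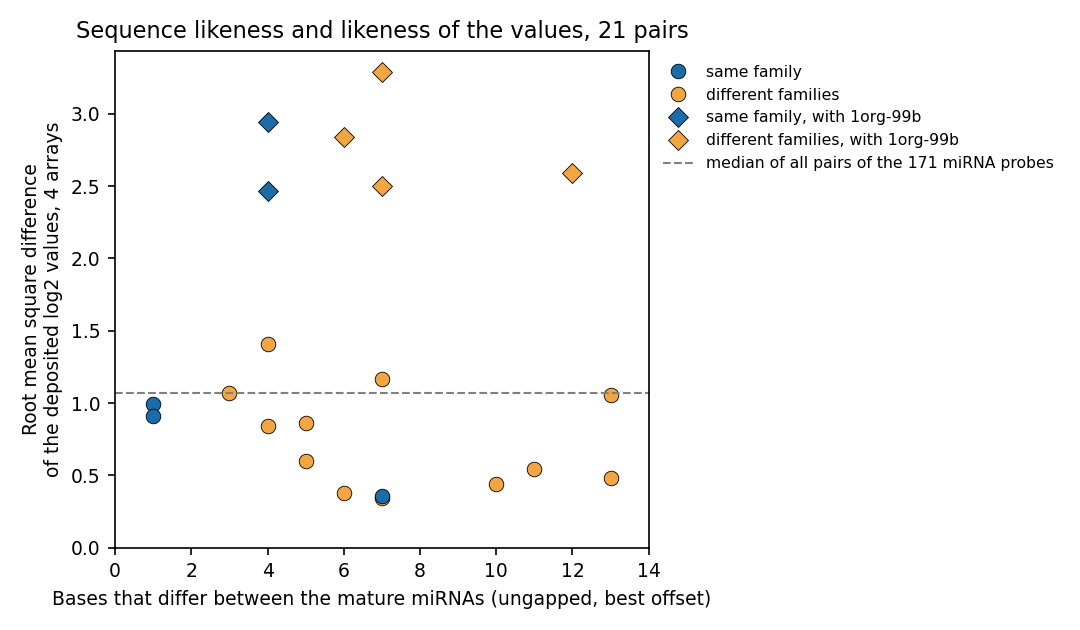
Root mean square difference of the deposited log2 values over 4 arrays (vertical axis) against the number of bases that differ between the mature miRNAs (horizontal axis) for the 21 pairs of probes, with the median of all pairs of miRNA probes as a dashed line at 1.07. The pairs with 1org-99b (diamonds) lie at 2.46 or higher, and the pairs that differ by 1 base lie at 0.91 and 0.99, above the closest pairs. At 7 differing bases 1org-125a with 1org-125b and a pair of different families nearly coincide. Bases were counted without gaps, and miR-125a and miR-125b have 24 and 22 bases. Their count of 7 leaves their 5 shared last bases unaligned, so it does not measure their likeness.

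By the same distance over the 4 arrays, the probes most like the mean of the miR-10 family were 2org-95 at 0.17, 2org-217 at 0.22 and 1org-153 at 0.30, none of them listed in the annotation. Of the 164 other probes, 15 lay closer to that mean than Mir10a and Mir10b did. The probes most like the mean of 1org-125a and 1org-125b were 1org-137 at 0.14, 1org-148 at 0.17 and Mir204 (1org-204) at 0.17, and these 3 were the only ones closer to it than the members. For the miR-99/100 family they were 1org-128 at 0.17, 1org-188 at 0.29 and 1org-27b at 0.37. That mean described none of its members, since 43 of 164 other probes lay closer to it than the nearest member did. Each family mean was made from its own members, which places them nearer to it in advance. These counts of closer probes therefore do not measure likeness within a family. The probe 2org-99, which the rule left out, was looked at because of its number. It had 1.92 (Cy5) and -0.18 (Cy3) at 96 h and -1.34 (Cy5) and -1.12 (Cy3) at 72 h. These values lay near those of 1org-125b, at 2.08 and -0.39 for 96 h and -1.34 and -1.18 for 72 h. Mir99a and Mir10b had a like course and Mir99b did not, so the course was not particular to the miR-99/100 family.

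The let-7 family, whose members repress growth-promoting genes and include neighbours of the miR-99/100 and miR-125 genes, lay mostly below 0 in the likely reading. Of its 9 probes with miR-98, 6 had turned averages below 0 at both time points, 2 above 0 at both and 1 of mixed sign. Their medians were -0.27 at 96 h and -0.43 at 72 h, against 0.81 and 0.07 for all miRNA probes. Centred on U6 and tRNA they were 0.06 and -0.46, and centred on the miRNA medians -0.89 and -0.55. None passed limma over all probes (0 of 9). Past 1.5-fold on both arrays, 1 of 9 was likely higher at 96 h (1org-98), where 46.2% of all probes were, and 2 were likely lower at 72 h (1org-7g and 1org-7i), where 5.26% of all probes were. Taken as already turned, the medians were 0.57 at 96 h and 0.18 at 72 h.

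The let-7 probes whose numbers match genes of the clusters were compared with their neighbours. The probe 1org-7e, listed under a human let-7e gene, had 1.04 with Foxp3 in Cy5 and 0.02 with Foxp3 in Cy3 at 96 h, and -0.61 and -0.87 at 72 h, with turned averages of 0.51 and 0.13. On each array its deposited value lay below that of Mir99b, encoded beside let-7e. So did most of the table, since Mir99b stood at ranks 4 to 24 of 171 from the highest. Against 1org-125a, matched by number to the same cluster, 1org-7e lay lower on the Foxp3-Cy5 array of 96 h, where 1org-125a had 1.62. It lay higher on the Foxp3-Cy3 array of 96 h and on both 72 h arrays, where 1org-125a had -0.67, -0.88 and -1.30. The probe 1org-7a had turned averages of -0.57 at 96 h and -0.47 at 72 h, and 1org-7c of -0.30 and -0.48, where Mir99a had 1.58 and 0.32 and 2org-100 had 1.11 and 0.23. Both let-7a and let-7c also have other genes outside these clusters. The probe 1org-7b, whose gene lies outside the clusters beside a second let-7c gene, had 0.01 and -0.43.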

How the data were processed

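The authors' deposited table was used as it stands, as log2 ratios of 1 dye over the other, with 171 miRNA probes and 7 control RNA probes and no missing value. The scanner, background correction, normalization, log base and direction of the ratio are not given in the sources used here. Folds assume base 2, and the scanner intensities were not used. Column medians differed between arrays, so the arrays shared no centring. Groups and dyes were taken from the labels, with replicate 1 of each time point the array with Foxp3 in Cy5. The dye-swapped arrays of a time point share their RNAs and were averaged to 1 replicate. These averages were tested against 0 with limma 3.58.1 in R 4.3.3 over all miRNA probes, at a Benjamini-Hochberg adjusted p of 0.05. The difference between time points used a time term over the 4 arrays, without a dye term. The first fit was run on simulated independent probes of equal spread with large changes, and the counting rule on made-up probes. These runs checked the code only, and do not show how either does on these data. A probe counted as past 1.5-fold when its mean was and both arrays had 1 sign.

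The RefSeq tables of GRCm38.p6 gave sequences, loci and gene names, and all 7 members were found there. Sequences were aligned without gaps at the best offset (Python 3.11.15). Named probes were the members, the let-7 probes of the neighbouring genes, and the 3 probes nearest each family's mean. The members and lists were chosen with earlier results of these data known. Alternatives were other centrings, scaling, the other reading of the sign, natural logs, a 2-fold threshold, each array left out, a dye term, robust variance and control probes included. Chosen after seeing the data were the other reading with centring, and the 96 h array with Foxp3 in Cy5 left out with centring.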

Additional observations from a re-analysis of the deposited data

How the results depend on the processing

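Of 231 values of single members under an alternative, 193 kept the sign of the reported value and 38 turned it. Values taken as already turned gave 20 of the turned signs (of 42 values), and those read as Cy5 over Cy3 gave 18 (of 189). Of the 38, 17 were means over both time points, 8 were 96 h values and 13 were 72 h values. Limma called the mean of a member, where the reported one was not called, in 6 of the values that kept their sign. The count of members called by limma over both time points was 0 under each alternative with all 4 arrays except the already turned and centred values, where it was 1. With single arrays left out it ran from 0 to 5, the 5 being Mir10b, Mir99a, 2org-100, 1org-125a and 1org-125b (limma adjusted p = 0.0246 for each) when replicate 1 of 72 h was left out. That fit called 94 of 171 probes (55%). The dye term, which is also the fit with a replicate block, left the count at 0. The numbers follow accession order and stand for the dye orientation, so they pair no cultures.

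The counts past 1.5-fold are given with the share of all miRNA probes that passed on either side. The 96 h count of 5, all higher (51.5%), became 2 higher centred on the miRNA medians (42.7%), 1 higher centred and scaled (33.3%), 1 higher already turned (33.9%), and 3 already turned and centred, 1 of them higher and 2 lower (17%). With an array left out it was 5, 4 of them higher and 1 lower (56.7%), or 6, all higher (77.8%). The 72 h count of 0 (7.6%) became 7 already turned, 1 of them higher and 6 lower (56.1%). Already turned and centred it was 3, 1 of them higher and 2 lower (44.4%). From a single array it was 6, all higher (72.5%), or 7, 1 of them higher and 6 lower (55%). The count that differed between time points, 0 (7.02%), became 1 centred on the miRNA medians (24%), 4 centred on U6 and tRNA (47.4%) and 6 already turned (67.8%). All of these were higher at 96 h. Already turned and centred it was 2, 1 of them higher and 1 lower (20.5%). With an array left out it ran from 1, lower at 96 h (12.9%), to 6, all higher (60.8%).

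Already turned, the means over both time points turned to -0.53 for Mir10b, -0.18 for Mir99a, -0.56 for 2org-100, -0.31 for 1org-125a and -0.21 for 1org-125b, and 2org-100 at 96 h to -0.26. Already turned and centred, those 5 means were -0.50, -0.15, -0.53, -0.27 and -0.17, and the 96 h values of Mir10b, 2org-100 and 1org-125a were -0.10, -0.90 and -0.17. Centred on U6 and tRNA, the mean of Mir10a turned to 0.09 and its 96 h value to 0.26, and centred and scaled, the mean of Mir10b to -0.0086. With single arrays left out, the means ran from -0.93 to 0.82 for Mir10a, -0.33 to 1.27 for Mir10b, -0.052 to 1.21 for 1org-125b and -0.87 to 2.55 for Mir99b. The 72 h values ran from -1.84 for Mir10b to 1.71 for Mir10a when read from a single array. Centred and lacking replicate 1 of 96 h, the mean of Mir99b was -0.92. The cause was not tested for any of these.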
